A study of Mus musculus with 6 samples.

Results

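The steroid and orphan nuclear receptors *Esr1*, *Esr2*, *Nr3c1*, *Nr2f1*, *Nr2f2*, *Nr0b1*, *Nr4a1* and *Thra* were followed in whole mouse testes collected 5 days postpartum (dpp). These 8 genes were chosen by name from the 54532 genes of the deposited expression table, and all 8 were found once. The 3 control (Ctrl) testes were compared with 3 conditional knockout (cKO) testes, in which Cre recombinase expressed from the germ-cell promoter of *Vasa* deleted part of the splicing factor gene *Srsf1*, so that the cKO genotype is *Vasa*-Cre *Srsf1* Fl/del. The alleles carried by the Ctrl mice and the strain of either group are not given in the sources used here. *Vasa*-Cre acts in germ cells, so Sertoli, Leydig and other somatic cells of the cKO testes keep the floxed allele beside the deleted one, and whether the somatic cells of the Ctrl mice carry the same dose of *Srsf1* is not known here. The comparison asked which receptor transcripts differ in level between the groups.

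Nuclear receptors are transcription factors that sense small lipophilic molecules such as steroids and thyroid hormone, bind DNA through zinc fingers and recruit coactivators or corepressors. Orphan receptors have the same fold but were named before a ligand was known, and several act without one. In the developing testis the oestrogen, glucocorticoid and thyroid hormone receptors carry hormonal signals to somatic and germ cells, COUP-TF proteins mark interstitial cells, and the products of *Nr0b1* and *Nr4a1* restrain or drive steroidogenic genes in Sertoli and Leydig cells.

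No receptor passed the test for a difference between Ctrl and cKO testes. With the limma threshold set at an adjusted p of 0.05, 0 of the 8 receptors were called, as were 0 of all 16206 tested genes (0%). Limma voom on the recovered reads also called 0 of the 8, with 61 lower and 22 higher genes in the whole table. The study itself, using DESeq2 on read counts at an adjusted p of 0.05, reported many lower and higher genes. The 0 calls over all tested genes therefore depend on the method, although some other limma settings, such as quantile normalization, also gave 0. At an unadjusted p under 0.05, only *Nr0b1* was called among the 8 receptors, where 15.9% of all tested genes were called. All 8 receptors were above the filter of a mean of 0.5 FPKM (fragments per kilobase of gene length, scaled to library size), and each fold change is the difference of mean log2(FPKM + 1), which understates the difference of low genes. *Nr0b1* and *Nr3c1* were lower in every cKO testis than in every Ctrl testis, a separation shown by 12.8% of all tested genes. *Esr1* and *Nr2f1* were higher in every cKO testis, as were 10.3% of all tested genes. Together 4 of the 8 receptors did not overlap between the groups, against 23.1% of all tested genes. The log2 fold changes of the 8 receptors had a median of 0.23, with 6 positive and 2 negative values, beside a median of 0.0027 over all tested genes. Library values are given below in the order of replicates 1, 2 and 3. For a single gene the exact two-sided permutation test of 3 against 3 testes cannot give a p-value below 0.1, and the 4 separated receptors were at that limit.

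Between 15448191 and 18964743 reads per library were recovered from the FPKM values. The deleted gene *Srsf1* ranged from 82.1 to 89.1 FPKM for Ctrl and from 45.1 to 51.6 FPKM for cKO, in the direction the labels give, with a limma adjusted p of 0.058. Because whole testes were sequenced, fewer cells of a type and less RNA per cell cannot be told apart in any value. Of 12 germ-cell markers, 11 were above the filter and all 11 were lower in every cKO testis, as were 12.8% of all tested genes. The 12 markers summed to 156.9 to 381.4 FPKM for Ctrl against 36.8 to 76.3 FPKM for cKO, the highest value being that of Ctrl 2. The part of this shift in the receptor values was not tested. One labelled protocol mentions retina, whereas 7 retina markers summed to 0.562 FPKM or less in every library and *Crx* and *Nrl* were listed at 0 in all 6, and the 10 Sertoli-cell markers summed to at least 2242 FPKM. The libraries are described by the study as biological replicates.

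Per gene length, the receptors spanned a wide range of levels in Ctrl testes. *Thra* had the highest mean, 65.9 FPKM, and its mean over all 6 libraries was above that of 95.6% of all tested genes. *Nr0b1* at 31.4 FPKM, *Nr4a1* at 17.9 FPKM and *Nr2f2* at 15.8 FPKM followed. *Nr3c1* at 8.15 FPKM, *Esr2* at 2.75 FPKM, *Esr1* at 2.06 FPKM and *Nr2f1* at 0.707 FPKM were lower still, so that the mean of *Thra* was 93.3-fold that of *Nr2f1*. The Ctrl ranges of *Nr4a1* and *Nr2f2* overlapped, as did those of *Esr2* and *Esr1*, and no other neighbours in this order overlapped in Ctrl testes. In cKO testes *Nr0b1* and *Nr4a1* overlapped too, whereas *Esr2* was above *Esr1* in every library.

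**Figure D1:**
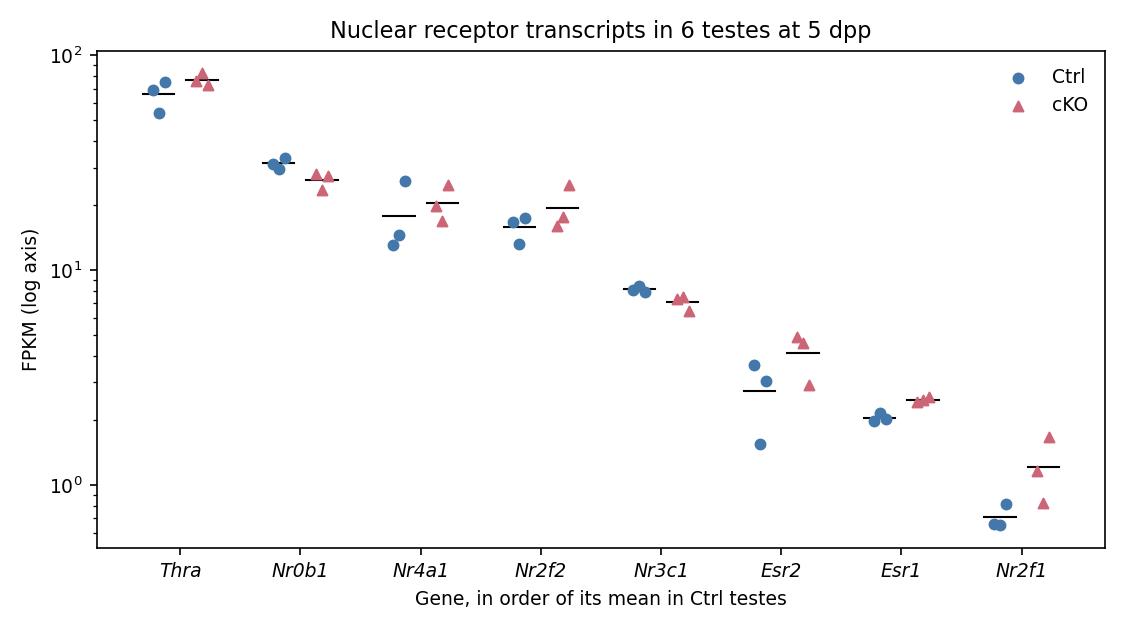
FPKM (log axis) of each receptor in the 3 Ctrl (circles) and 3 cKO testes (triangles), with the group mean as a black line and genes ordered by their Ctrl mean. Means run from 65.9 FPKM for *Thra* to 0.707 FPKM for *Nr2f1* in Ctrl testes, and the groups are apart for *Nr0b1*, *Nr3c1*, *Esr1* and *Nr2f1*.

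The oestrogen receptors were considered first. *Esr1* (ENSMUSG00000019768) encodes oestrogen receptor alpha, which in testis is found mainly in interstitial and peritubular cells, with its row covering bases 4611593 to 5005614 of chromosome 10 (GRCm38, + strand). *Esr1* gave 1.99, 2.15 and 2.03 FPKM across the Ctrl testes, against 2.43, 2.498 and 2.56 FPKM across the cKO testes. Every cKO testis was above every Ctrl testis, and both groups were tight. The mean was 2.06 ± 0.0825 FPKM for Ctrl against 2.495 ± 0.0651 FPKM for cKO (SD, n = 3 each), or 121% of Ctrl. The log2 fold change was 0.19 (SE 0.095, 95% confidence interval −0.03 to 0.41), and the adjusted p-value in limma was 0.378. Between 441 and 570 reads lay behind each value.

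*Esr2* (ENSMUSG00000021055, chr12:76120419-76177259, − strand) encodes oestrogen receptor beta, which binds the same hormone and is found in Sertoli and germ cells. *Esr2* gave 3.63, 1.54 and 3.06 FPKM across the Ctrl testes, against 4.91, 4.57 and 2.92 FPKM across the cKO testes. Ctrl 2 was the low library, whereas cKO 3 lay within the Ctrl range, and the groups overlapped. The mean was 2.75 ± 1.08 FPKM for Ctrl against 4.13 ± 1.06 FPKM for cKO (SD, n = 3 each), and the log2 fold change on the FPKM + 1 scale, 0.48, was the largest of the 8 receptors (SE 0.254, 95% confidence interval −0.12 to 1.07). The adjusted p-value in limma was 0.411. Without Ctrl 2, the library with the highest germ-cell markers, the log2 fold change was 0.22, and without cKO 3 it was 0.66. The value of Ctrl 2 rested on 99 reads, with an exact Poisson interval of 1.25 to 1.88 FPKM that covers counting error only and lies below every other library. The FPKM ratio of *Esr2* to *Esr1* came to 1.82, 0.717 and 1.504 across the Ctrl testes, against 2.02, 1.83 and 1.14 across the cKO testes, so *Esr2* was the lower of the pair in Ctrl 2 only. The *Esr2* gene also contains the processed pseudogene *Gm7862* on the same strand, which shares 0 exon bases with it in GENCODE release M21.

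*Nr3c1* (ENSMUSG00000024431) encodes the glucocorticoid receptor, which is present in most tissues and transmits the cortisol or corticosterone signal. Its row spans chromosome 18 from 39410545 to 39491301 on the − strand, a shorter interval than GENCODE release M21 gives, where the gene ends at 39519421. *Nr3c1* gave 8.11, 8.40 and 7.95 FPKM across the Ctrl testes, against 7.37, 7.52 and 6.45 FPKM across the cKO testes. Every cKO testis was below every Ctrl testis, by a narrow margin between 7.52 and 7.95 FPKM. The mean was 8.15 ± 0.230 FPKM for Ctrl against 7.11 ± 0.580 FPKM for cKO (SD, n = 3 each), or 87.2% of Ctrl. The log2 fold change was −0.18 (SE 0.088, 95% confidence interval −0.38 to 0.03), and the adjusted p-value in limma was 0.387.

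To see whether other genes of glucocorticoid signalling differed, 13 genes known as glucocorticoid targets were examined, all above the filter. In limma 0 of the 13 passed the threshold, and their median log2 fold change was −0.04. An unadjusted p under 0.05 was given for 4 of the 13, where 15.9% of all tested genes had one. Of these 4, 3 were lower and 1 higher. The higher gene was *Dusp1*, at 5.25 ± 0.402 FPKM for Ctrl against 6.91 ± 1.13 FPKM for cKO (SD, n = 3 each), without overlap. The metallothionein genes *Mt1* and *Mt2*, whose products bind metal ions and which also respond to zinc and stress, and *Tsc22d3*, which encodes the glucocorticoid-induced leucine zipper protein, had the smallest p-values. *Mt1* gave 59.9, 97.0 and 71.5 FPKM across the Ctrl testes, against 20.6, 28.5 and 31.8 FPKM across the cKO testes. Its log2 fold change was −1.46 (SE 0.212) with a limma adjusted p of 0.078, and the groups did not overlap. *Mt2* was at 2.02 ± 0.808 FPKM for Ctrl against 0.589 ± 0.551 FPKM for cKO (SD, n = 3 each), on only 2 to 33 reads per library. *Tsc22d3* was at 17.6 ± 3.86 and 11.9 ± 0.759 FPKM (SD, n = 3 each). These 3 genes, named for their small p-values, were all highest in Ctrl 2, the library with the highest germ-cell markers. The part of germ cells in their values was not tested. *Ddit4*, a stress-responsive inhibitor of mTOR signalling and the target with the highest level over all libraries, was at 75.9 ± 22.0 FPKM for Ctrl against 91.0 ± 6.34 FPKM for cKO (SD, n = 3 each), and its groups overlapped.

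*Thra* (ENSMUSG00000058756, chr11:98740638-98769006, + strand) encodes thyroid hormone receptor alpha, through which thyroid hormone limits the proliferation of neonatal Sertoli cells. *Thra* gave 68.9, 54.0 and 74.9 FPKM across the Ctrl testes, against 75.6, 82.4 and 72.4 FPKM across the cKO testes. The groups overlapped, since Ctrl 3 was above cKO 3, and Ctrl 2 was again the low library. The mean was 65.9 ± 10.7 FPKM for Ctrl against 76.8 ± 5.07 FPKM for cKO (SD, n = 3 each), with a log2 fold change of 0.23 (SE 0.132, 95% confidence interval −0.08 to 0.54) and an adjusted p-value in limma of 0.443. Without Ctrl 2 the log2 fold change was 0.09. The exons of *Thra* share 263 bases, 5.70% of its length, with those of *Nr1d1* on the opposite strand, and the strand setting of the read counting is not given in the sources used here. *Nr1d1*, the gene of the circadian repressor REV-ERB alpha, had means of 2.58 FPKM for Ctrl and 1.78 FPKM for cKO, far under those of *Thra*. The related receptor gene *Thrb* was low and gave 0.943, 1.03 and 0.879 FPKM across the Ctrl testes, against 1.30, 1.34 and 0.752 FPKM across the cKO testes. *Thra* therefore exceeded *Thrb* by at least 52.5-fold in every library, per gene length.

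Of 9 genes known as thyroid hormone targets, 6 were above the filter and 0 passed the threshold in limma. Where 15.9% of all tested genes had an unadjusted p under 0.05, 1 of the 6 targets had one. That target was *Cdkn1b*, which encodes the cell-cycle inhibitor p27Kip1. *Cdkn1b* was at 13.7 ± 1.18 FPKM for Ctrl against 17.6 ± 0.641 FPKM for cKO (SD, n = 3 each), without overlap, and its adjusted p-value in limma was 0.163. *Gja1*, the gap junction gene of Sertoli cells and the target with the highest level, was at 76.8 ± 10.6 and 92.3 ± 9.51 FPKM (SD, n = 3 each), and *Klf9*, a zinc finger gene, at 3.98 ± 0.472 and 3.25 ± 0.790 FPKM (SD, n = 3 each), both with overlap.

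The COUP-TF genes *Nr2f1* and *Nr2f2* encode orphan receptors with closely related DNA-binding domains, and COUP-TFII, the product of *Nr2f2*, is a known marker of testicular interstitial cells, including Leydig cell progenitors. *Nr2f2* (ENSMUSG00000030551, chr7:70351944-70366735, − strand) gave 16.7, 13.2 and 17.5 FPKM across the Ctrl testes, against 16.1, 17.7 and 24.8 FPKM across the cKO testes. The groups overlapped through cKO 1, whereas cKO 2 lay just above the highest Ctrl value and cKO 3 far above it. Ctrl 2 was the lowest library. The log2 fold change was 0.27 (SE 0.174, 95% confidence interval −0.14 to 0.68), the adjusted p-value in limma was 0.481, and without cKO 3 the log2 fold change was 0.10.

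*Nr2f1* (ENSMUSG00000069171, chr13:78188973-78199757, − strand) was the lowest receptor and gave 0.655, 0.650 and 0.817 FPKM across the Ctrl testes, against 1.16, 0.823 and 1.66 FPKM across the cKO testes. The groups did not overlap, but only just. Ctrl 3 rested on 69 reads and cKO 2 on 70 reads, with exact Poisson intervals of 0.635 to 1.03 and 0.642 to 1.04 FPKM, so these libraries were not distinguishable at this depth. The mean was 0.707 ± 0.0949 FPKM for Ctrl against 1.22 ± 0.424 FPKM for cKO (SD, n = 3 each). The log2 fold change was 0.36 (SE 0.166, 95% confidence interval −0.03 to 0.75), with an adjusted p-value in limma of 0.347. Without cKO 3 the log2 fold change was 0.22. With a pseudocount of 0.1 in place of 1, and all 6 libraries, it was 0.66, above the 0.62 of *Esr2*.

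Both COUP-TF genes had their highest value in cKO 3, as did 21.3% of all tested genes. In that library the 8 markers of interstitial stroma summed to 1451 FPKM, against 928.7 to 1061 FPKM in the other 5 libraries. Most of the cKO 3 sum came from the collagen genes *Col3a1* (575 FPKM) and *Col1a1* (363 FPKM). Of the 8 markers, 5 had their highest value in cKO 3, whereas *Pdgfra*, *Tcf21* and *Wnt5a* were highest in cKO 1. The 8 endothelial markers summed to 65.9 to 76.5 FPKM for Ctrl against 78.3 to 87.1 FPKM for cKO, with the highest value again in cKO 3. In both lists 0 markers were at 0. The part of these cells in the COUP-TF values was not tested. The exons of *Nr2f2* share 643 bases, 7.46% of its length, with the noncoding gene *B130024G19Rik* on the opposite strand, and those of *Nr2f1* share 123 bases, 2.42%, with *A830082K12Rik*.

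*Nr0b1* encodes DAX1, an unusual orphan receptor that lacks the zinc-finger DNA-binding domain and represses the steroidogenic regulator SF1, the product of *Nr5a1*. It had the smallest p-value of the 8 receptors. *Nr0b1* (ENSMUSG00000025056, chrX:86191764-86195947, + strand) gave 31.3, 29.6 and 33.1 FPKM across the Ctrl testes, against 28.1, 23.6 and 27.4 FPKM across the cKO testes. Every cKO testis was below every Ctrl testis, and cKO 2 was the lowest. The mean was 31.4 ± 1.74 FPKM for Ctrl against 26.4 ± 2.40 FPKM for cKO (SD, n = 3 each), or 84.0% of Ctrl. The log2 fold change was −0.24 (SE 0.094, 95% confidence interval −0.47 to −0.02). The interval, which is not adjusted for the number of genes, lay below 0, whereas the adjusted p-value in limma was 0.287. Its partner gene *Nr5a1* was the highest of the other nuclear receptors, at 71.6 ± 13.1 FPKM for Ctrl against 76.0 ± 2.62 FPKM for cKO (SD, n = 3 each), with overlap. The 10 Sertoli-cell markers, which stand for cells that express *Nr0b1*, summed to 2242 to 3261 FPKM for Ctrl against 2919 to 3293 FPKM for cKO, with 0 markers at 0. Most of the cKO 3 sum came from *Inha* (940 FPKM), *Amh* (837 FPKM), *Aard* (643 FPKM) and *Clu* (581 FPKM). Of the 10 Sertoli-cell markers, 7 were lower and 3 higher on average in cKO testes, with a median log2 fold change of −0.12. Without overlap 3 were lower and 1 higher, as were 12.8% and 10.3% of all tested genes. The 8 Leydig-cell markers summed to 404.3 to 589.2 FPKM for Ctrl against 636.3 to 726.9 FPKM for cKO, also with 0 markers at 0. Of these 8 markers, 2 were lower and 6 higher on average in cKO testes. Without overlap 3 of the 8 were higher, as were 10.3% of all tested genes. *Hsd3b1*, the highest of the Leydig-cell markers, overlapped between the groups. The part of Sertoli and Leydig cells in the *Nr0b1* value was not tested.

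The promoter of *Nr0b1* is shown because it was the only receptor window searched that held AGGTCA, the letters at the core of many hormone response elements. The sequence is the RefSeq window from 250 bases before to 50 bases after the transcription start, chrX:86191525-86191824 on the + strand of GRCm38.p6, and the capitals mark AGGTCA.

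Nr0b1 promoter: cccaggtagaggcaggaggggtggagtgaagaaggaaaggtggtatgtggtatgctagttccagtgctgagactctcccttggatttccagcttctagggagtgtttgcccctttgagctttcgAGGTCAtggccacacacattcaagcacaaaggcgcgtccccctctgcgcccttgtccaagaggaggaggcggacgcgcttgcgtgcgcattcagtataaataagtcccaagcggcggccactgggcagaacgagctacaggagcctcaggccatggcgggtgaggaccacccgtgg

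AGGTCA or its reverse complement was found in 1 of the 8 windows of the 6 receptors searched, that of *Nr0b1*, where it begins 126 bases upstream of the start. Over all 32851 promoter windows of this length, 16.3% hold it. A match of letters is not a bound site.

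*Nr4a1* (ENSMUSG00000023034, chr15:101254269-101274795, + strand) encodes NUR77, an orphan receptor induced within minutes by hormones, growth factors and cellular stress, which activates steroidogenic genes in Leydig cells. *Nr4a1* gave 13.03, 14.5 and 26.0 FPKM across the Ctrl testes, against 19.8, 16.9 and 24.98 FPKM across the cKO testes. The highest value of each group was in the libraries numbered 3, and the groups overlapped over most of their range. The mean was 17.9 ± 7.11 FPKM for Ctrl against 20.5 ± 4.11 FPKM for cKO (SD, n = 3 each). The log2 fold change was 0.24 (SE 0.258, 95% confidence interval −0.37 to 0.84), and the adjusted p-value in limma, 0.683, was the highest of the 8 receptors. It was the member most dependent on single libraries, with a log2 fold change of 0.06 without Ctrl 1 and 0.53 without Ctrl 3.

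*Nr4a1* was set beside 15 immediate early genes, which are transcribed within minutes of a stimulus without new protein synthesis. Of these, 13 were above the filter, and in 9 of the 13 (69.2%) the highest Ctrl value was in Ctrl 3 and the highest cKO value in cKO 3, a pattern shared by 15.7% of all tested genes. *Egr1*, a zinc-finger early gene chosen after its values were seen, gave 12.2, 11.5 and 20.4 FPKM across the Ctrl testes, against 11.4, 14.0 and 21.4 FPKM across the cKO testes. *Ier2*, the early gene with the highest level, gave 37.9, 32.4 and 48.7 FPKM across the Ctrl testes, against 39.0, 46.0 and 62.3 FPKM across the cKO testes. Both followed *Nr4a1* in being highest in the libraries numbered 3 of each group. *Nr2f1* and *Nr2f2* had this pattern too, so 3 of the 8 receptors (37.5%) showed it. Among the early genes without it, *Nr4a2* and *Junb* had their highest cKO value in cKO 1.

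Between the groups, 0 of the 13 early genes passed the threshold in limma, with a median log2 fold change of 0.19. An unadjusted p under 0.05 was found for 2 of the 13, against 15.9% of all tested genes. *Jun*, a subunit of the AP-1 transcription factor, was at 25.1 ± 2.55 FPKM for Ctrl against 36.3 ± 3.88 FPKM for cKO (SD, n = 3 each), without overlap, and its adjusted p-value in limma was 0.124. *Dusp1*, a phosphatase gene that limits MAP kinase signalling, was at 5.25 ± 0.402 and 6.91 ± 1.13 FPKM (SD, n = 3 each), also without overlap. *Egr2*, another zinc-finger gene, was at 2.40 ± 0.142 and 1.89 ± 0.384 FPKM (SD, n = 3 each), with overlap.

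The *Nr4a1* promoter is shown because it holds several copies of TGCGTCA, letters close to the cyclic AMP response element TGACGTCA through which early genes are often induced. The sequence is the RefSeq window chr15:101266596-101266895 on the + strand of GRCm38.p6, 250 bases before to 50 bases after the start, and the capitals mark TGCGTCA.

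Nr4a1 promoter: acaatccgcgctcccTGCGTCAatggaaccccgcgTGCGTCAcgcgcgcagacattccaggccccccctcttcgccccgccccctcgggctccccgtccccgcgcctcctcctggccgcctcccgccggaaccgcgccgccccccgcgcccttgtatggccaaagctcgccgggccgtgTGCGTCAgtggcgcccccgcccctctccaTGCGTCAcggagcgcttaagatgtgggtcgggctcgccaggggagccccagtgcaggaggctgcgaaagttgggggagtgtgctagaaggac

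TGCGTCA was found 4 times, beginning 235, 215, 71 and 42 bases upstream of the start, and TGACGTCA was not found in this window. Both strands were searched, and the letters were chosen after the sequence was seen. Of all 32851 promoter windows, 2.12% hold TGCGTCA and 1.79% hold TGACGTCA at least once. The *Nr4a1* window, in which the letters were chosen, is the only one of these windows with 4 copies or more of TGCGTCA. Among the 12 immediate early genes with a window, 1 held TGCGTCA and 2 held TGACGTCA. The other 7 windows of the receptors searched held 0 copies of either.

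**Figure D2:**
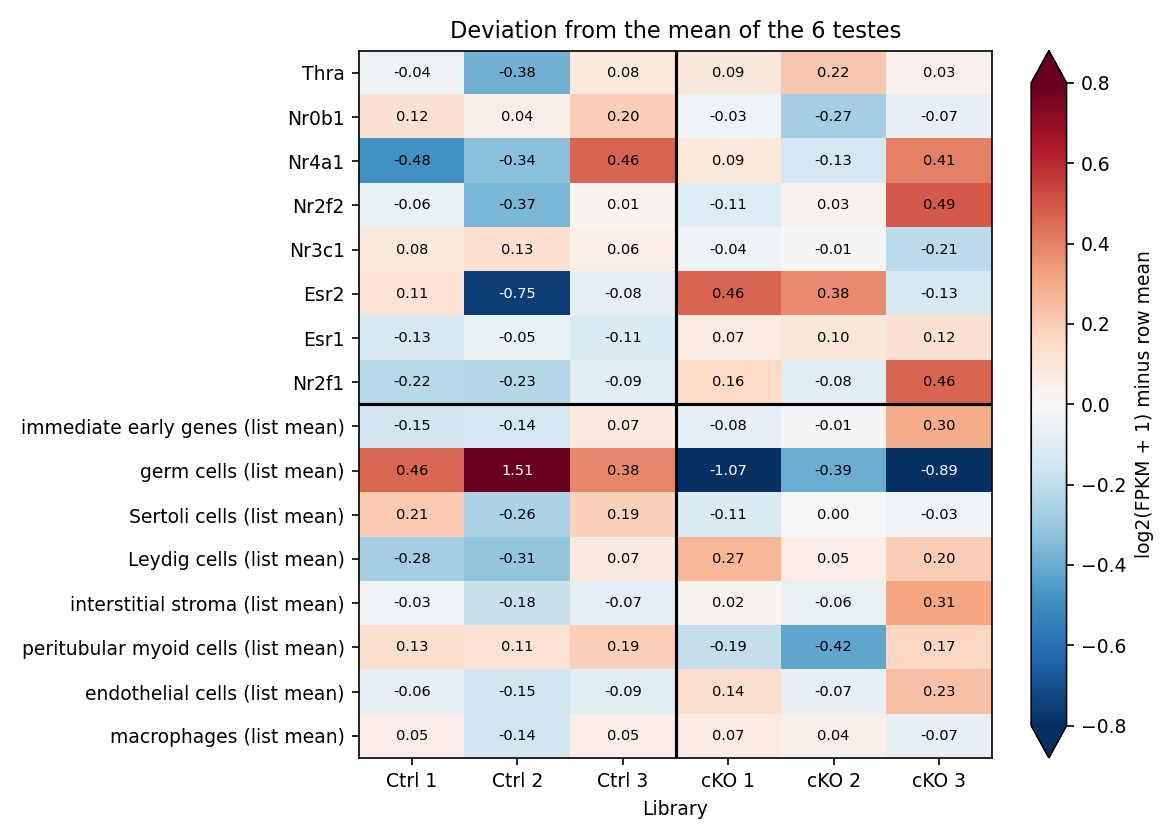
Deviation of log2(FPKM + 1) from the mean of the 6 testes, for the 8 receptors (above the line) and for the mean of each gene list (below it), with libraries in columns and colours cut at 0.8. *Nr4a1* deviates by 0.46 in Ctrl 3 and 0.41 in cKO 3, *Nr2f2* by 0.49 in cKO 3, *Esr2* by −0.75 in Ctrl 2, and the germ-cell list by 1.51 in Ctrl 2.

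Ctrl 2 stood apart in several receptors as well as in the germ-cell markers. It had the lowest Ctrl value for 5 of the 8 receptors (*Thra*, *Nr0b1*, *Nr2f2*, *Esr2* and *Nr2f1*), a pattern of 37.5% of all tested genes, and the highest for *Nr3c1* and *Esr1*. Without Ctrl 2 the log2 fold changes of the 8 receptors kept their signs, and 0 of the 8 passed the threshold.

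**Figure D3:**
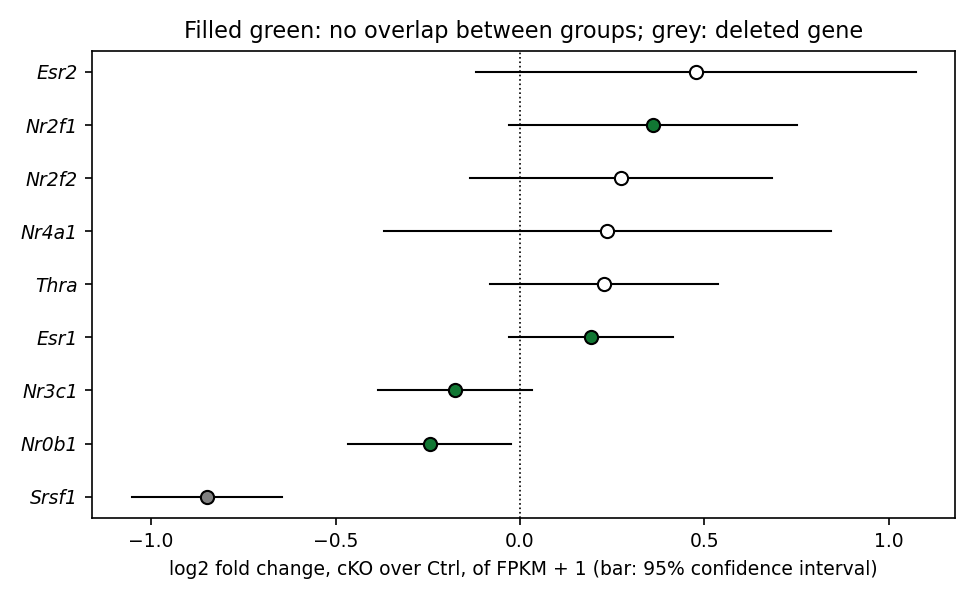
Log2 fold change of FPKM + 1, cKO over Ctrl, for each receptor and for *Srsf1* (grey), with bars for the 95% confidence interval of limma and green for receptors whose groups do not overlap. Every receptor interval except that of *Nr0b1* (−0.47 to −0.02) includes 0, and *Srsf1* is at −0.85.

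The receptors were then compared with the rest of their family. Of 41 other nuclear receptor genes, 23 were above the filter and 0 passed the threshold in limma. In 5 of the 23 (21.7%) the groups did not overlap, close to the 23.1% of all tested genes. Of these 5, 3 were lower and 2 higher in cKO testes. The median log2 fold change of the 23 was 0.03. *Nr5a2*, which encodes LRH-1, a relative of SF1, was at 1.20 ± 0.359 FPKM for Ctrl against 0.346 ± 0.138 FPKM for cKO (SD, n = 3 each), with an adjusted p-value in limma of 0.144. *Vdr*, the vitamin D receptor gene, was at 2.70 ± 0.170 and 1.68 ± 0.492 FPKM (SD, n = 3 each), also without overlap. *Nr0b2*, which encodes SHP, the other receptor without a DNA-binding domain, was at 5.88 ± 0.472 and 8.78 ± 2.56 FPKM (SD, n = 3 each), with overlap.

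Genes that act on the receptors or their ligands were examined next. Among 18 coregulator genes, 17 were above the filter, 0 passed the threshold in limma, and the median log2 fold change was −0.02. *Ncoa3*, a coactivator of steroid receptors, was at 5.82 ± 0.419 FPKM for Ctrl against 4.74 ± 0.423 FPKM for cKO (SD, n = 3 each), the single coregulator without overlap. Over all tested genes, 23.1% did not overlap. The coactivator gene *Ncoa4* was at 9.74 ± 1.33 and 8.01 ± 1.60 FPKM, and the arginine methyltransferase gene *Prmt1* at 78.7 ± 3.45 and 74.7 ± 6.23 FPKM (SD, n = 3 each).

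The 10 chaperone genes, whose products hold unliganded steroid receptors ready to bind hormone, were all above the filter. In limma 0 of the 10 passed the threshold, and the median log2 fold change was −0.09. An unadjusted p under 0.05 was given for 3 of the 10, all lower in cKO testes, where 15.9% of all tested genes had one. These were *Stip1*, *Hsp90aa1* and *Fkbp4*, and each had its highest value in Ctrl 2, the library with the highest germ-cell markers, whose part in these values was not tested. *Stip1*, which encodes the adaptor HOP, was at 80.1 ± 3.13 FPKM for Ctrl against 62.3 ± 6.45 FPKM for cKO (SD, n = 3 each), without overlap. *Hsp90aa1*, a stress-inducible HSP90 gene, was at 278.4 ± 71.02 and 186.5 ± 11.4 FPKM (SD, n = 3 each), also without overlap. The immunophilin gene *Fkbp4*, whose product escorts steroid receptors, was at 122.1 ± 16.9 and 99.8 ± 7.32 FPKM (SD, n = 3 each), with overlap. *Hsp90ab1*, the constitutive HSP90 gene with the highest level of the list, was at 588.1 ± 49.6 and 617.5 ± 84.3 FPKM (SD, n = 3 each).

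Of 13 genes for hormone-metabolizing enzymes and transporters, 8 were above the filter and 0 passed the threshold in limma. The groups did not overlap in 6 of the 8, with 5 higher and 1 lower in cKO testes, where 10.3% of all tested genes were higher and 12.8% lower without overlap. The median log2 fold change of the list was 0.23, and that of the 8 Leydig-cell markers was 0.40, with a part in these values that was not tested. *Hsd17b1*, whose product converts oestrone to oestradiol, gave 126, 98.9 and 177 FPKM across the Ctrl testes, against 219, 188 and 228 FPKM across the cKO testes. All cKO values were above all Ctrl values, the log2 fold change was 0.69 (SE 0.206), and the adjusted p-value in limma was 0.201. The oestrogen sulfotransferase gene *Sult1e1*, which inactivates oestrogens, was at 0.565 ± 0.432 and 1.48 ± 0.161 FPKM (SD, n = 3 each), on only 5 to 32 reads per library. *Hsd17b3*, which makes testosterone from androstenedione and had the highest level of the list, was at 201.7 ± 19.1 and 228.8 ± 13.2 FPKM (SD, n = 3 each), so both of these genes too were higher in every cKO testis.

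Of 8 genes known as oestrogen targets, 5 were above the filter, 0 passed the threshold in limma, 4 were higher on average and 1 lower, and *Tff1* was listed at 0 in all 6 libraries. *Cxcl12*, a chemokine gene, was at 29.9 ± 5.66 FPKM for Ctrl against 43.9 ± 3.71 FPKM for cKO (SD, n = 3 each), without overlap and with an adjusted p-value in limma of 0.166. The growth regulator gene *Greb1* was at 6.05 ± 2.65 and 7.91 ± 1.65 FPKM, *Xbp1*, a transcription factor gene of the unfolded protein response, at 31.6 ± 2.56 and 37.0 ± 4.64 FPKM, and *Igfbp4*, which encodes a binding protein of insulin-like growth factors, at 85.6 ± 8.42 and 98.0 ± 20.4 FPKM (SD, n = 3 each), all with overlap.

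**Figure D4:**
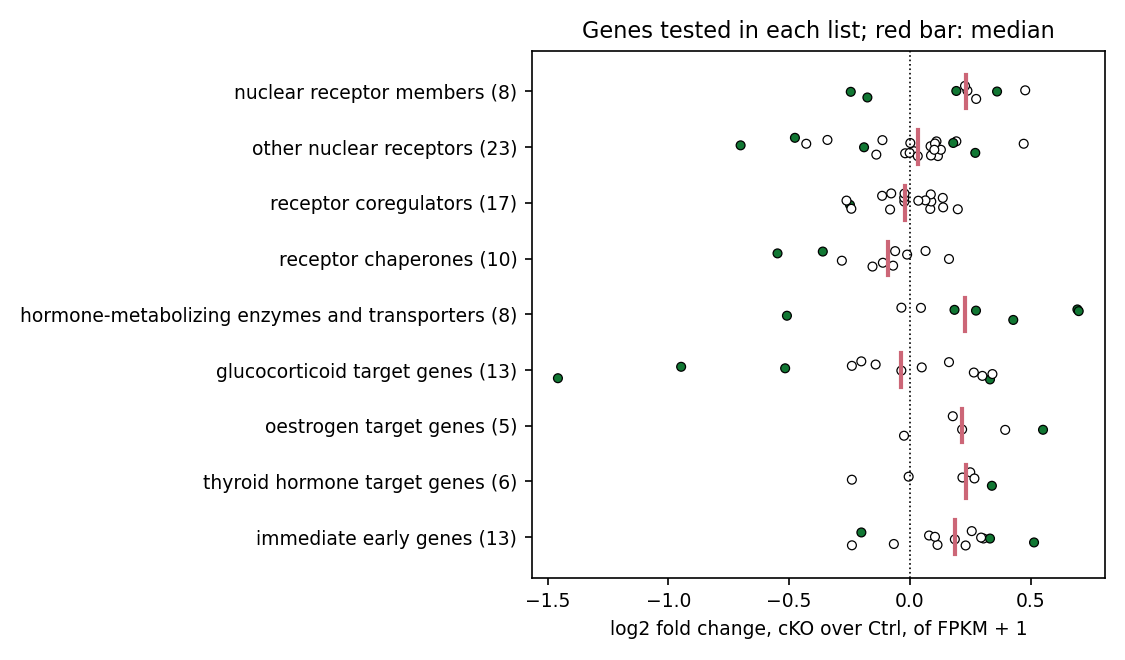
Log2 fold change of FPKM + 1, cKO over Ctrl, of each tested gene of the 8 receptors and 8 related lists, with the number of genes tested in brackets, a red bar at the list median and green for genes whose groups do not overlap. The receptor median is 0.23, that of the other nuclear receptors 0.03, and *Mt1* at −1.46 is the lowest point.

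Last, the gene with the profile most like that of each receptor was sought among 159 tested genes of the related and cell-type lists, by the root mean square difference of centred log2(FPKM + 1) values over the 6 libraries. The early gene *Junb* was closest to *Nr4a1*, at 0.19, where the profile of *Nr4a1* itself varied by 0.35 around its mean. The oestrogen target *Greb1* was closest to *Esr2* (0.20 of 0.40), the endothelial gene *Tie1* to *Nr2f1* (0.07 of 0.24) and *Igfbp4* to *Nr2f2* (0.08 of 0.25). For *Thra* the closest gene was the retinoic acid receptor gene *Rara* (0.07 of 0.19), for *Esr1* the retinoid X receptor gene *Rxra* (0.05 of 0.10), for *Nr3c1* the coactivator gene *Ncoa3* (0.06 of 0.11) and for *Nr0b1* the chaperone gene *Hspa8* (0.11 of 0.15). These are descriptions over 6 libraries, and with profiles this flat many genes lie close to each other.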

How the data were processed

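Polyadenylated RNA from 6 testes was sequenced as paired-end reads, with group and replicate number taken from the sample titles. Per the study's methods and the submitters' processing notes, the authors aligned reads to mm10 with HISAT2 2.0.5, counted them with featureCounts and deposited FPKM values, 1 column per sample, for 54532 genes. The annotation release is not given in the sources used here. FPKM times the deposited gene length gave whole multiples of 1 step per library, within 0.01, for 100% of values above 0, so the reads per gene were recovered. Library scaling in the FPKM matched median-of-ratios factors to within 3.81e-12.

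Limma 3.58.1 (R 4.3.3) compared log2(FPKM + 1) values of 16206 genes averaging 0.5 FPKM or more, with 2 groups, no covariate, a mean-variance trend and Benjamini-Hochberg adjustment over all tested genes, at a threshold of 0.05. The model was tested on simulated data first. Replicates of a group differed by far more than sampling noise (chi-square over its degrees of freedom, 9.39 or more). The p-values weigh each group difference against the spread between samples, which limma moderates over all tested genes. Read-based intervals hold counting error alone, as reads lack molecular identifiers. For a 1 kb gene, 3 reads correspond to 0.158 to 0.194 FPKM.

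The receptors, gene lists and tests were chosen with earlier results of these data known. The rule for named genes was the 8 receptors, *Srsf1*, the 3 genes of each related list with the smallest p, its gene with the highest mean and the closest profile to each receptor. Some genes that the rule names are not reported here. Other genes were named after their values were seen. Alternatives were pseudocount 0.1, a filter at 1 FPKM, no filter, no trend, a replicate block, a fit to protein-coding genes, limma voom with the recovered reads, TPM, quantile normalization, undone scaling and leaving out each library. Promoters came from RefSeq (GRCm38.p6), for 6 of the 8 receptors. Marker lists of peritubular myoid cells (6 genes, median log2 fold change −0.35), macrophages (10 genes, 0.03), erythroid cells (5 genes, 0.69) and excurrent duct epithelium (5 genes, 3 of them tested, 0.30) were also measured.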

Additional observations from a re-analysis of the deposited data

How the results depend on the processing

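Under the 16 alternatives, 0 of the 8 receptors passed the threshold in limma, and all 127 receptor values kept their direction. A mean of at least 1 FPKM removed *Nr2f1* and gave no value for it. The lowest adjusted p-values in limma over the alternatives were 0.224 for *Esr1*, 0.232 for *Nr0b1* and for *Nr4a1*, 0.247 for *Nr2f1*, 0.307 for *Esr2*, 0.321 for *Thra*, 0.345 for *Nr2f2* and 0.352 for *Nr3c1*, and the highest ran from 0.471 for *Nr0b1* to 0.941 for *Nr4a1*. Leaving out each library gave log2 fold changes of 0.06 to 0.53 for *Nr4a1*, 0.10 to 0.40 for *Nr2f2*, 0.09 to 0.33 for *Thra*, 0.22 to 0.66 for *Esr2*, 0.22 to 0.49 for *Nr2f1*, 0.18 to 0.21 for *Esr1*, −0.21 to −0.12 for *Nr3c1* and −0.29 to −0.17 for *Nr0b1*. The cause was not tested.

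The number of genes called in the whole table moved with the settings. The reported limma fit called 0 lower and 0 higher genes, with 1508 and 1069 below 0.05 before adjustment. A fit to protein-coding genes gave 176 and 37, limma voom 61 and 22, TPM 1 and 4, and no trend 0 and 1. Leaving out each library gave 0 to 15 lower and 0 to 3 higher genes, the most without Ctrl 2. With the replicate number as a block, 84 genes were lower and 14 higher. The deviations of same-numbered libraries correlated at 0.066, 0.016 and 0.088, and those of different-numbered libraries at −0.095 to 0.041. The labels do not say whether same-numbered samples share more than a number, and this was not tested. The blocked log2 fold changes of the receptors were the same, such as 0.19 for *Esr1*. *Srsf1* passed the threshold in 4 of the 16 alternatives. The median of all tested genes shifted by at most 0.019 under any alternative. Among the receptors, depth limits *Nr2f1* most, at 54 to 131 reads per library, where the counting intervals of Ctrl 3 and cKO 2 overlap.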
